A study of Mus musculus with 7 samples.

Results

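The genes of 5 laminin chains, Lama2, Lama3, Lamb1, Lamb2 and Lamc1, were followed in the soleus of 7 mice, a hindlimb muscle made largely of slow fibres. They were chosen by gene symbol, each has 1 probe, and they are 5 of the 203 named genes (223 probes) on the array. Each animal lacked tenascin-C, a matrix glycoprotein encoded by Tnc, and was labelled a cage control of the 129/SV strain. No source used here gives the age of the mice or the make-up of the deletion. All 7 samples form a single group without wild-type or treated animals, so the comparisons are between mice and between chains. The replicate numbers follow accession order and only name the mice. RNA came from whole muscle sections, in which fewer cells of a type and less RNA per cell cannot be told apart.

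Laminins are the main glycoproteins of basement membranes, the sheets of matrix that surround each muscle fibre, capillary and nerve. Each molecule is a trimer of an alpha, a beta and a gamma chain. The gamma chain encoded by Lamc1 is shared by most laminins. In skeletal muscle the alpha chain encoded by Lama2 forms merosin, whose loss causes a congenital muscular dystrophy, and its alpha chain binds dystroglycan and integrins on the fibre surface. Lama3 encodes an alpha chain best known from epithelial basement membranes. Lamb1 encodes the common beta chain, and Lamb2 a beta chain enriched at the neuromuscular junction and in vessel walls.

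Signals are given as percent of each array's summed signal, the scale on which the values were deposited, a sum that leaves out 28S rRNA and an unnamed bright probe. The 10th percentile of an array serves as its floor, and a reading over 3 times the floor is called clearly above it. Replicate 3 stood apart from the other mice. Its floor was 0.15%, against 0.04% to 0.08% on the other 6 arrays, and its 7 muscle fibre probes (Myh7, Myh2, Myh1, Myh4, Mb, Ttn and Des) summed to 2.25%, against 23.2% to 31.5%. In replicates 1 and 2 the 28S rRNA probe read 3.48% and 3.79%. It read 0.37% in replicate 3 and from 24.1% to 49.7% in the remaining 4 mice. Replicates 1 and 2, whose titles carry different codes, differed by at most 0.02% on any of the 5 chains, and they were counted as separate mice. The probe for the targeted gene, Tnc, read between 0.08% and 0.18%, over 3 times the floor on none of the arrays.

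Few laminin readings were clearly above the floor of their array. Of the 35 readings (5 chains on 7 arrays), 31 lay above the floor, or 88.6%, where 80.8% of the readings of all probes did so. Only 5 were clearly above it, or 14.3%, against 23.7% of the readings of all probes. These 5 readings were Lama3 in replicates 3 and 4, Lamc1 in replicates 1 and 2, and a single one of Lamb2, in replicate 6. No chain was clearly above the floor on every array. Lama2 and Lamb1 were so on none, as were 57% of all probes, and Lama3 and Lamc1 were so on 2 arrays each, where 32.7% of all probes reached at least 2. The laminin values are recorded in steps of 0.01%. If 0.005% is taken from a reading and added to the floor, the most that rounding could have moved either, 4 of the 5 readings still exceed 3 times the floor, and Lamc1 in replicate 1 does not.

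**Figure D1:**
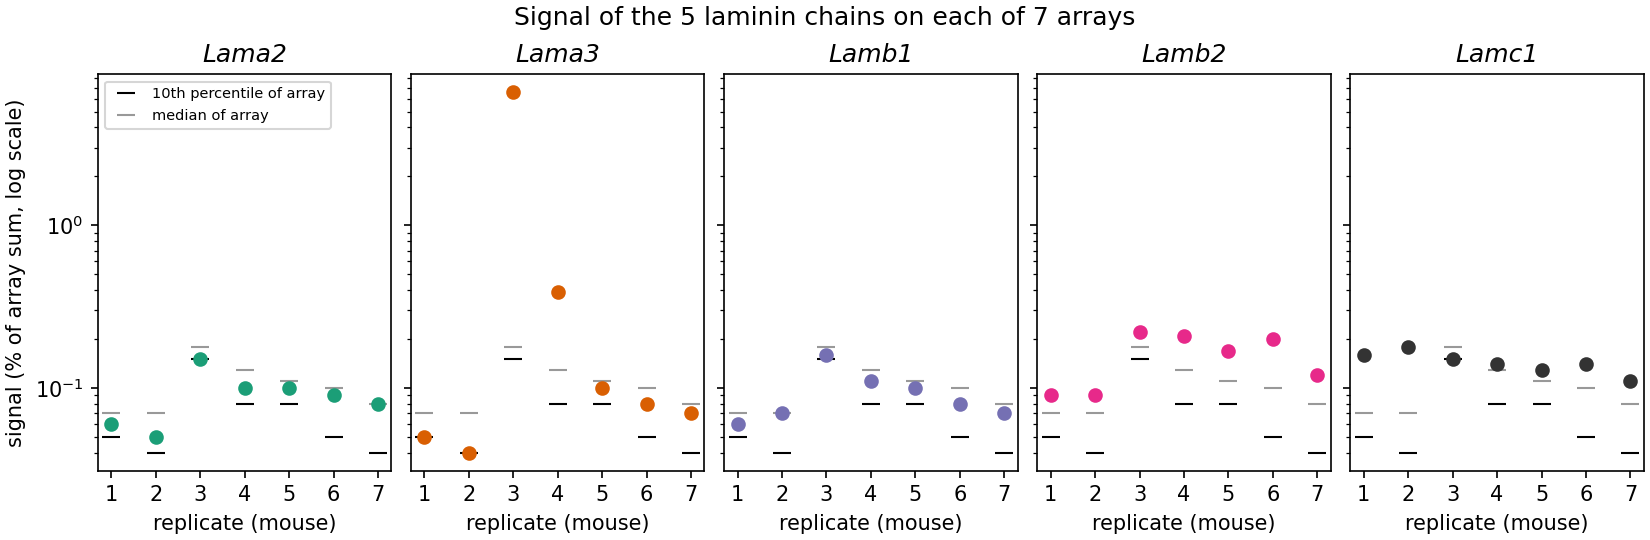
Each panel plots 1 laminin chain, with the replicate on the x axis and the signal as percent of the array sum on a log y axis. Coloured points are the chain, black dashes the 10th percentile and grey dashes the median of that array, and Lama3 in replicate 3 (6.57%) is the only laminin reading far above both.

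In replicates 1 and 2, Lama2, the alpha chain of merosin, carried 0.06% and 0.05% of the array sum, and in replicate 3 it carried 0.15%. It carried 0.10%, 0.10%, 0.09% and 0.08% in replicates 4 to 7, with a mean of 0.090% ± 0.033 (SD, n = 7). Replicate 3 was highest in share, but there the reading equalled the array's floor. The Lama2 signal stayed between 0.71 and 1.0 times the array median, and at most 2.0 times the floor, in replicate 7. At its lowest reading, a rounding error of 0.005% amounts to 0.14 on the log2 scale.

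Lama3, the epithelial alpha chain, showed the widest range of the 5. It carried 0.05% and 0.04% in replicates 1 and 2, both at the floor, and 6.57% in replicate 3. Replicate 4 followed with 0.39%, and replicates 5 to 7 had 0.10%, 0.08% and 0.07%. Replicate 3 therefore read 16.8 times the next array and 43.8 times its own floor. Replicate 4 read 4.9 times its floor and 3.9 times the highest of replicates 1, 2, 5, 6 and 7. The mean over all mice was 1.04% ± 2.44 (SD, n = 7), and without replicate 3 it was 0.122% ± 0.133 (SD, n = 6), so the mean describes none of the muscles.

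The Lama3 reading of replicate 3 was the 3rd brightest of that array. In replicate 3, 6 of the 223 probes read at least 10 times their highest value on any other array, and Lama3 was 1 of them. In replicate 4, Lama3 was the only probe of the 223 that read at least 3 times its highest value in replicates 1, 2, 5, 6 and 7. Both counts were chosen after the values were seen. No keratin or other epithelial marker of the list used here has a probe on the array, nor has any nerve or Schwann cell marker, so these cell types could not be checked. The 5 endothelial probes (Pecam1, Cdh5, Kdr, Flt1 and Tek) summed to 9.5% in replicate 3 and 0.45% to 1.27% on the other arrays. Pecam1 alone made up 8.36% of the former. In replicate 3 Cdh5 read 0.60%, 4.0 times the floor, while Flt1 (0.22%), Kdr (0.16%) and Tek (0.16%) were at most 1.5 times the floor. Their part in the Lama3 reading was not tested.

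Lamb1, the common beta chain, carried 0.06%, 0.07% and 0.16% in replicates 1 to 3 and 0.11%, 0.10%, 0.08% and 0.07% in replicates 4 to 7. The mean was 0.093% ± 0.035 (SD, n = 7). Lamb1 lay at 0.80 to 1.0 times the array median on every array and never exceeded 1.8 times the floor. Its share thus rose and fell with the level of the median probe.

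Lamb2, the junctional and vascular beta chain, carried 0.09% in both of replicates 1 and 2. It carried 0.22% in replicate 3, while replicates 4 to 7 had 0.21%, 0.17%, 0.20% and 0.12%. The mean was 0.157% ± 0.056 (SD, n = 7). Lamb2 stood at 1.2 to 2.0 times the array median, above the median on all 7 arrays. It reached 4.0 times the floor in replicate 6 and 3.0 times, which is not over the threshold, in replicate 7.

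Lamc1, the shared gamma chain, held the steadiest share. In replicates 1 and 2 it carried 0.16% and 0.18%. Replicate 3 had 0.15%, and replicates 4 to 7 had 0.14%, 0.13%, 0.14% and 0.11%, with a mean of 0.144% ± 0.022 (SD, n = 7). Replicates 1 and 2 were above all the others, whereas Lama2, Lama3 and Lamb2 had their 2 lowest readings there. In multiples of the floor, Lamc1 stood at 3.2 and 4.5 in replicates 1 and 2. It stood at 1.0 in replicate 3 and between 1.6 and 2.8 in the rest. The reading of replicate 3 equals the floor of that array, so the narrow range of shares includes a reading at the floor.

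**Figure D2:**
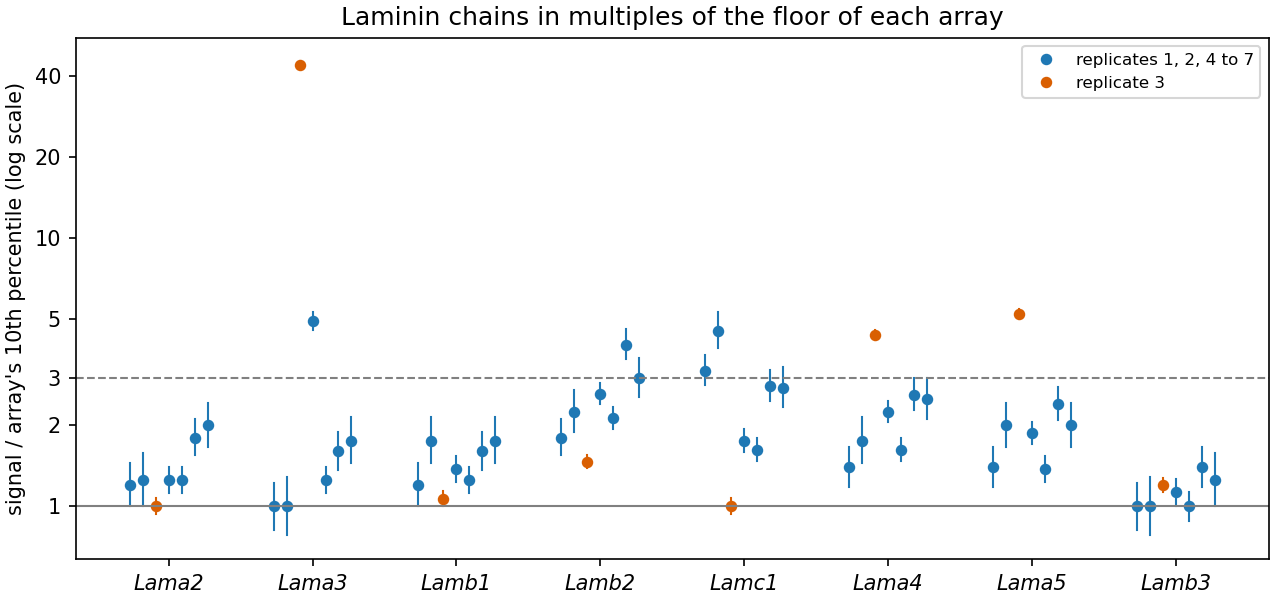
The x axis lists the 5 chains and the 3 other laminin genes on the array, and the log y axis gives the signal divided by the 10th percentile of the same array. Points are single arrays in order of replicate, replicate 3 in orange, with bars for a rounding error of 0.005% on both values and lines at 1 and 3 times the floor. Of the 5 chains, only Lama3, Lamb2 and Lamc1 have points over the upper line.

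The array carries 3 further laminin genes. Lama4, the alpha chain of endothelial basement membranes, read 0.07% to 0.18% on 6 arrays and 0.65% in replicate 3, 4.3 times its floor. Lama5, a widely expressed alpha chain of vessel and epithelial basement membranes, read 0.07% to 0.15% and 0.78%, 5.2 times the floor. Lamb3, the beta chain that pairs with the Lama3 product in skin, read 0.04% to 0.09% and 0.18%, only 1.2 times the floor. The 3 alpha chains that were clearly above the floor in replicate 3 were thus Lama3, Lama4 and Lama5, while Lama2, the 3 beta chains and Lamc1 were not. On that array 13% of all probes were clearly above the floor. Of all 8 laminin probes, 7 had their highest share in replicate 3, as did 70.4% of all probes, and Lamc1 was the exception.

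Few genes from the list of basement membrane and adhesion genes used here are on the array. Of 35 in the list, 5 have a probe, and not all of these encode partners of laminins. Itga8, an integrin gene outside the list, also has a probe. It read 0.05% to 0.30% over the 7 arrays and was clearly above the floor on 2. Itgb1, the beta subunit of the laminin-binding integrins, read 0.27% to 0.56% on 6 arrays and 1.28% in replicate 3, and was clearly above the floor on all 7. Des, the intermediate filament of muscle, read 1.58% to 3.20% on 6 arrays and 0.32% in replicate 3. Itga2, the alpha subunit of a collagen and laminin receptor, read 0.04% to 0.08% and 0.16% in replicate 3, at most 1.1 times the floor. Itgav, a subunit of receptors for fibronectin and vitronectin, read 0.06% to 0.10% and 0.17%, and was clearly above the floor on no array. Itgb5, a partner of the Itgav product, read 0.11% to 0.19% and 0.15%.

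The question that a single group allows is whether a chain differed between arrays by more than other probes of similar brightness. Each mouse has 1 array, so differences between mice and differences in RNA, labelling or hybridisation cannot be told apart. A one-sided F test set the variance of a probe against limma's trend over mean signal, with Benjamini-Hochberg adjustment over all 223 probes. The test was built here from limma's estimates, and its adjusted values are called limma adjusted p. It called none of the 5 chains over 7 arrays, and it called 0% of all probes at an adjusted p under 0.05, with 17 probes at an unadjusted p under 0.05. The SD of Lama3 was 2.58 on the log2 scale against a trend of 0.48, with an unadjusted p of 0.0013 and a limma adjusted p of 0.244. Without replicate 3 the SD was 1.16 against 0.43 (limma adjusted p = 0.159), where 2.24% of all probes were called and none of them was a laminin chain. With median-centred arrays and no replicate 3, the SD of Lama3 was 0.84 against a trend of 0.25 (limma adjusted p = 0.338). Lama3 passed the unadjusted threshold in all of these fits and was the only chain to do so.

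The log2 SD was 0.52 for Lama2 (trend 0.64), 0.49 for Lamb1 (0.63), 0.57 for Lamb2 (0.49) and 0.23 for Lamc1 (0.50), and their limma adjusted p values were 0.885, 0.887, 0.885 and 0.997. The median SD of the 5 chains was 0.52, where that of all 223 probes was 0.69. Centring each array on its median reordered them. Lamb1 then had an SD of 0.10, Lama2 0.16 and Lamb2 0.25, whereas Lamc1 rose to 0.58. Lamc1 is thus the steadiest chain as a share of the array sum, and the second most variable relative to the median probe.

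Ratios within an array do not depend on how the array was scaled, but they do depend on background where a reading is near the floor. In replicate 3 Lamc1, the denominator, read at the floor, so its ratios are plotted but not described. The signal of Lama2 divided by that of Lamc1 was 0.38 and 0.28 in replicates 1 and 2, and between 0.64 and 0.77 in replicates 4 to 7. Lamb1 over Lamc1 was 0.38 and 0.39 against 0.57 to 0.79, and Lamb2 over Lamc1 was 0.56 and 0.50 against 1.1 to 1.5. For each of these 3 ratios, replicates 1 and 2 lay below the other 4 mice. The 28S rRNA signal given above also separates replicates 1 and 2 from replicates 4 to 7, and its part in the ratios was not tested. Over replicates 4 to 7 alone, a choice made after seeing the data, the SD of the log2 ratio was 0.11 for Lama2, 0.22 for Lamb1, 0.20 for Lamb2 and 1.06 for Lama3 (n = 4). In these mice Lama2 (at most 2.0 times the floor), Lamb1 (at most 1.75) and Lamc1 (1.6 to 2.8) were never clearly above it. The small SDs therefore compare readings near the floor, recorded in steps of 0.01%, and do not show a fixed proportion of the chains. Lama3 over Lamc1 was 2.8 in replicate 4 and 0.57 to 0.77 in replicates 5 to 7, and in replicates 1 and 2 Lama3 itself read at the floor. Between the beta chains, Lamb2 over Lamb1 ran from 1.3 in replicate 2 to 2.5 in replicate 6 (log2 SD 0.32, n = 7), with Lamb1 nowhere clearly above the floor.

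**Figure D3:**
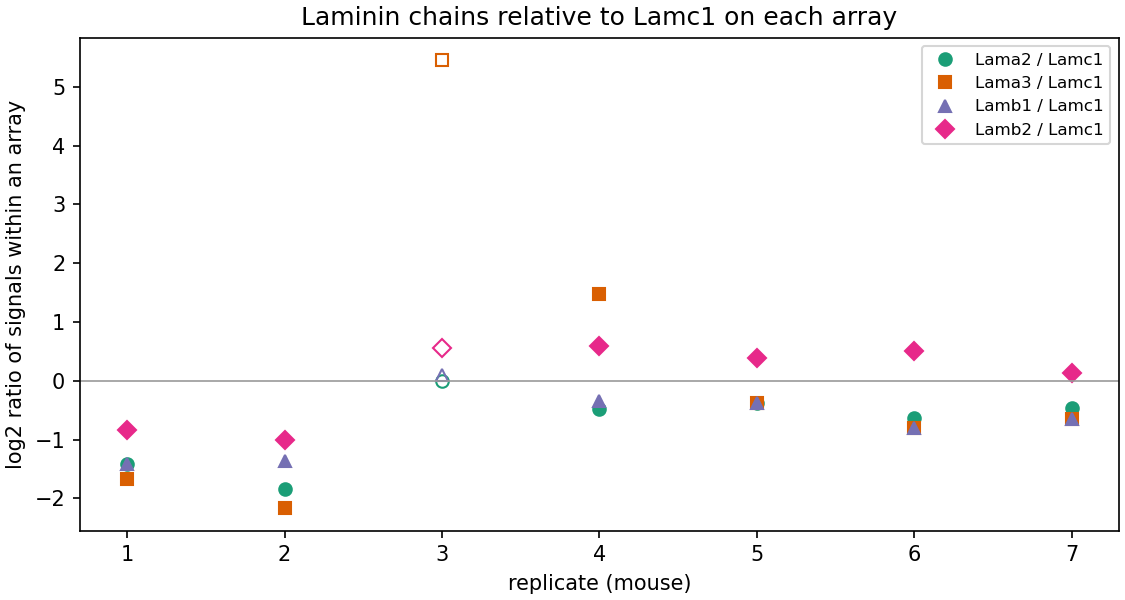
The x axis gives the replicate and the y axis the log2 ratio of each chain's signal to that of Lamc1 on the same array, 1 symbol per chain. Open symbols mark replicate 3, where Lamc1 read at the floor. Among the other arrays, replicates 1 and 2 lie lowest for all 4 chains and Lama3 is highest in replicate 4 (1.48).

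Whether the chains varied together was examined over the 6 arrays other than replicate 3. The 6 pairs that leave out Lamc1 had Pearson's r between 0.76 and 0.92, and the 4 pairs with Lamc1 had r between -0.70 and -0.29. Pairs of all probes had a median r of 0.64. At an unadjusted exact two-sided permutation p under 0.05, 4 of the 10 laminin pairs passed, where 26.3% of all 24753 pairs of probes did. None passed after Benjamini-Hochberg adjustment over all pairs of probes, the lowest adjusted value being 0.13 (exact permutation test). Of all pairs of probes 0% passed, so this is no trait of the laminin pairs. The smallest exact permutation p of any pair over 6 arrays was 0.0014. The highest r was that of Lama2 with Lamb2, at 0.92 (exact permutation p = 0.014, n = 6). Its rank correlation rho was 0.88 (exact permutation p = 0.036). The highest rho of the 10 pairs was that of Lama2 with Lama3, at 0.99 (exact permutation p = 0.0056, not adjusted). Its r was 0.76 (exact permutation p = 0.058). Over these arrays Lama2 was nowhere clearly above the floor and Lama3 only in replicate 4, so this rho largely ranks readings near the floor. Without the 2 arrays farthest from the median Lama2 signal, r was 0.78 for Lama2 with Lamb2 and 0.66 for Lama2 with Lama3 (n = 4). Each of the 4 chains other than Lamc1 also followed the array median, with r between 0.91 and 0.96 over the 6 arrays, whereas Lamc1 had r = -0.39.

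Once each array was centred on its median, the positive relations were gone. The 6 pairs without Lamc1 then had r between -0.72 and 0.36, and 0 of the 10 pairs passed at an unadjusted exact permutation p under 0.05, where 13.6% of all pairs of probes did. In rank order, centred Lama3 and Lamc1 ran exactly opposite (rho = -1.0, exact permutation p = 0.0028, n = 6, not adjusted for the 10 pairs), with r = -0.72 (exact permutation p = 0.060). With quantile normalization rho was -0.77 (exact permutation p = 0.10), and as deposited it was -0.55 (exact permutation p = 0.27). This pair had the most extreme centred rho of the 10, and the share of all pairs of probes with such a rho was not computed. Lama3 read at the floor in replicates 1 and 2 and was clearly above it only in replicate 4. The order thus largely ranks readings near the floor. Replicates 6 and 7 were close, at 0.80 and 0.875 times the array median for Lama3 and 1.40 and 1.375 for Lamc1. The 6 arrays further split into replicates 1 and 2 and replicates 4 to 7 by their 28S signal, and with fewer than 6 arrays in either part no correlation is given within them.

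Lama3 and Lamc1, the chains clearly above the floor on at least 2 arrays, were then set beside the probes whose pattern was most like theirs. Likeness was Pearson's r of log2 signals over the 6 arrays other than replicate 3, among other named probes clearly above the floor on at least 2 of these. Lama3 was clearly above the floor on only 1 of these 6, replicate 4, and at the floor in replicates 1 and 2. Its values of r therefore rest largely on that array and on readings at or near the floor. For Lama3 the 3 most alike of 67 were 1 of the probes for Igf1, a growth factor (r = 0.98), Ldhc, the testis-type lactate dehydrogenase (r = 0.97), and Pecam1, an endothelial adhesion molecule (r = 0.97). Without replicate 4, r was 0.87, 0.91 and 0.93. After median-centring it was 0.94, 0.96 and 0.93. In replicate 3, which did not enter the choice, Igf1 read 4.93%, Ldhc 4.38% and Pecam1 8.36%, each its highest value, as replicate 3 was for 70.4% of all probes. These were 10.7, 11.2 and 18.6 times their highest value on any other array, so the 3 are among the 6 probes counted above at 10 times or more. The other Igf1 probe read 2.66% in replicate 3 and at most 0.36% elsewhere. In replicate 4 the 3 chosen probes read 0.46%, 0.39% and 0.45%, which the choice by r favoured.

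For Lamc1 the 3 most alike of 66 were Cited2, a transcriptional co-regulator (r = 0.86), Fgfr2, a fibroblast growth factor receptor (r = 0.83), and Itgb1 (r = 0.79). After median-centring r was 0.99, 0.94 and 0.92. In replicates 1 and 2 Cited2 read 0.25% and 0.27%, against 0.14% or 0.15% in replicates 4 to 7. Fgfr2 and Itgb1 did not split in this way. Fgfr2 read 0.29% and 0.43% in replicates 1 and 2 and 0.34% in replicate 6. Itgb1 read 0.36% and 0.56% in replicates 1 and 2, and 0.38% and 0.43% in replicates 4 and 6. In replicate 3 Cited2 read 0.17% and Fgfr2 0.20%, near the floor as Lamc1 was, whereas Itgb1 was at its highest there. These values of r are descriptions, since the probes were picked for them, and carry no test.

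**Figure D4:**
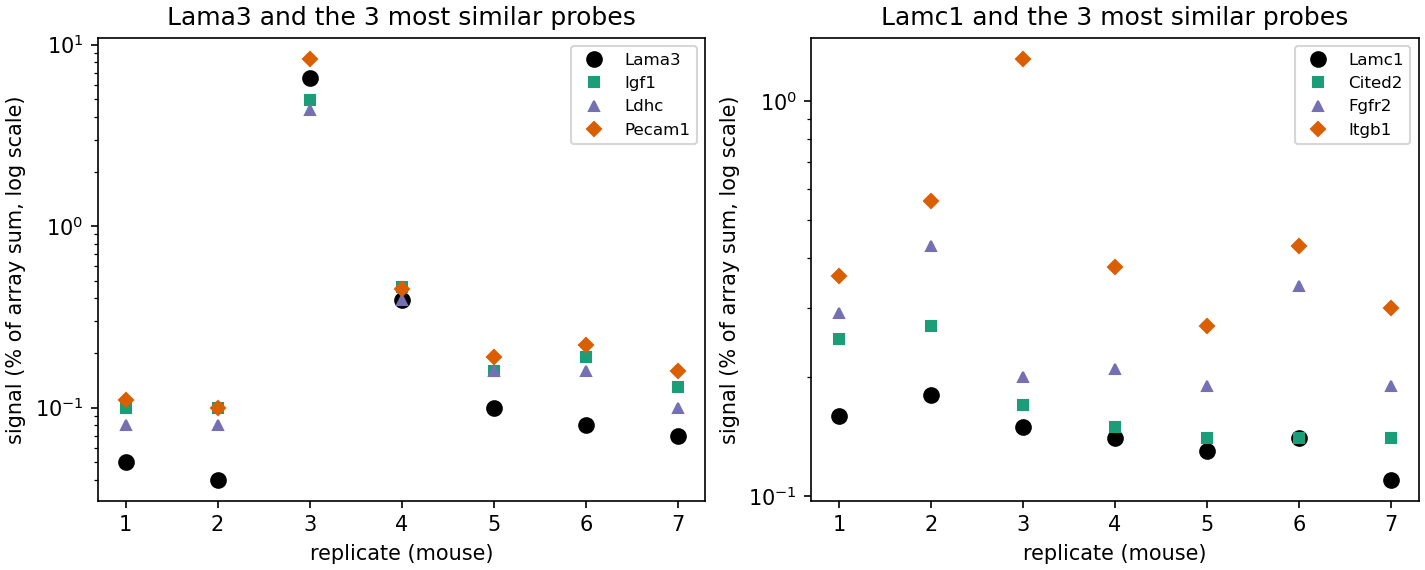
The x axes give the replicate and the log y axes the signal as percent of the array sum. The left panel shows Lama3 with Igf1, Ldhc and Pecam1, all highest in replicate 3 and next in replicate 4, and the right panel shows Lamc1 with Cited2, Fgfr2 and Itgb1, of which Itgb1 alone rises in replicate 3 (1.28%).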

How the data were processed

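Total RNA from cryosections of the soleus belly (4 µg) was reverse transcribed with gene-specific primers and a radioactive nucleotide and hybridised to a 1-channel array, per the labels' protocols. The sources used here do not say how spots were scanned or corrected for background. The file deposited by the authors holds linear spot intensities and no detection flags. Multiplied by 100, the values of an array, leaving out 28S rRNA and an unnamed probe, total 99.8% to 100.02%, so the deposited intensities are scaled to that total. The number of arrays limits the precision.

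Probes were named through the supplied platform annotation (205 of 223 with 1 symbol, 18 with none). All 5 Entrez identifiers carry the same symbol in RefSeq, which also lists Lamb2 as an old name of Lamc1. The 2 probes have different identifiers. The files name no genome build, so no coordinates are given, and probe and protein sequences were not used here.

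Log2 intensities were fitted with limma 3.58.1 in R 4.3.3 (intercept only, robust trend). A one-sided F test on 6 residual degrees of freedom then set each probe's variance against limma's trend. It used limma's largest prior degrees of freedom for all probes. Other steps used Python 3.11.15. Both tests were run on simulated Gaussian data that had no array-wide shift, rounding or outlying array. Those runs do not show how the tests behave on the present arrays. Correlations were to be adjusted over the 10 laminin pairs, and were instead adjusted over all pairs of probes. The named genes are the 5 chains and the 3 most alike probes of chains clearly above the floor on at least 2 arrays. They also include the integrins and Des of the basement membrane and adhesion list, Tnc, and muscle markers. Others were chosen after their values were seen. The members and lists were chosen with earlier results of these data known. The series calls the 7 samples biological replicates.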

Additional observations from a re-analysis of the deposited data

Results flagged for a closer look

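Among 12 sets of 7 values examined for an array far from the other 6 (log2 signals of 8 laminin probes and 4 log2 ratios to Lamc1), 2 stood out by Dixon's test, which divides the gap to the nearest array by the whole range. Lama5 in replicate 3 had a gap of 0.684 of the range, and Lama4 in replicate 3 a gap of 0.576, both past the 95% critical value for 7 arrays. Chance flags about 1 in 20 such sets, but 27.4% of all probes (61 of 223) passed the same value, each because of replicate 3. Lama3 in replicate 3 stayed just under the critical value, at 0.554, because replicate 4 was also high.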

How the results depend on the processing

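The 5 readings clearly above the floor became 11 at 2 times the floor (Lamb2 then on 5 arrays and Lamc1 on 4) and 1 at 3 times the array median, the latter an alternative chosen after seeing the data. With single replicates left out there were 4 to 5. The count of laminin pairs past the adjusted threshold was 0 over 6 arrays, where 0% of all pairs of probes passed. It was 5 over all 7 (added after seeing the data), where 48.2% of all pairs of probes passed by the exact permutation test. It was 0 with each single further replicate left out, where 5 arrays allow no smaller exact permutation p than 0.0083. No chain was called by the variance test in any of the 14 alternative fits. In these the limma adjusted p of Lama3 ran from 0.068 (without replicate 4) to 0.905. The mean log2 ratios to Lamc1 include replicate 3, where Lamc1 read at the floor. They moved by less than their SD over 7 arrays, which was 2.6 for Lama3 and 0.65 for Lama2. An SD this wide is a weak yardstick, and the means of Lama3 and Lamb2 changed sign in some settings. With each array's minimum subtracted the means went from -0.75 to -1.34 for Lama2 and -0.70 to -1.15 for Lamb1. Those of Lamb2 and Lama3 went from 0.05 to 0.31 and from 0.18 to -0.04. In replicate 3 the minimum was 0.13% and Lamc1 read 0.15%, so the subtracted ratios there rest on a reading close to the minimum. With single replicates left out the means ran from -0.87 to -0.56 for Lama2, -0.70 to 0.57 for Lama3, -0.83 to -0.58 for Lamb1 and -0.04 to 0.22 for Lamb2. No paired analysis was possible because there is a single group. Signals near the floor and steps of 0.01% limit what can be said of Lama2 and Lamb1. Their levels were nowhere clearly above the floor, which is a percentile of the array's probes and not a measured background. This does not show that the transcripts are absent.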

Other observations

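Probe identifiers pair a number with a letter, and the sources used here do not say whether they give positions on the array. The probe of Lama3 is 9H. In replicate 3 the probes whose identifiers differ by 1 step from it read 0.65% (9I, Lama4), 0.31% (10H, Thbs1), 0.29% (8H, Edn1) and 0.15% (9G, Lama2), where the floor was 0.15%. On the other 6 arrays the same probes read at most 0.18%, 0.10%, 0.09% and 0.10%. The probe of Lama5, 4I, is 1 step from 4H, Itgb1, which read 1.28% in replicate 3. Other probes 1 step from 4H read 0.17% (4G, Itgav), 0.18% (5H, Pdgfb) and 0.22% (3H, Efnb1) in replicate 3. The probe of Lamb1, 4J, 1 step from that of Lama5, read 0.16% there. Whether neighbouring identifiers have a part in these readings was not tested.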
